A study of Homo sapiens with 8 samples.

Results

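The 10 genes described here belong to the WNT pathway: the ligands WNT5A and WNT7B, the receptors FZD2 and FZD7, the inhibitors NKD2, DKK1 and AXIN2, the DKK family member DKK3, beta-catenin (CTNNB1) and its DNA-binding partner LEF1. They were taken by symbol, as every probe that the array annotation assigns to 1 of these names, which gave 14 probes among 24526 and 10 genes among 16922. The names were chosen with earlier results of these data known, so counts of members beside those of all genes are descriptions only. RNA was measured on Illumina bead arrays, 1 array for each of 8 human breast cell cultures. SUM1315, MDA-MB231 and SUM159 are lines that the labels call basal-like breast cancer cells, and all were measured untransfected. Further SUM159 cultures carried a stable transfection with LacZ, a bacterial gene that served as control, or with IRX5, an Iroquois homeobox factor. HMLE, an immortalized human mammary epithelial line, carried LacZ, Gcnt2, a glycosyltransferase, or Foxq1, a forkhead factor. No untransfected HMLE culture was analysed here. Whether a transfected culture was a clone or a pool, and the promoter and species of each construct, no label or header used here states.

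WNT proteins are secreted signals that bind Frizzled receptors. In the canonical branch this protects beta-catenin from a destruction complex built on AXIN and APC, so that beta-catenin can enter the nucleus and act with TCF and LEF factors on genes such as AXIN2 and LEF1. In other branches, for which WNT5A is the best known ligand, the receptors act on the cytoskeleton and cell polarity without beta-catenin. DKK1 blocks the LRP co-receptors outside the cell, and NKD2 binds Dishevelled inside it. In breast tissue the pathway is known for its part in the basal and stem cell compartment.

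RefSeq promoter windows were at hand for 5 of the members, WNT5A, CTNNB1, NKD2, DKK1 and LEF1. The 250 bases before the start of transcription were searched on both strands for CTTTGA, the core bound by TCF and LEF factors, for TGTTTA, a forkhead core, and for ACANNTGT, an Iroquois core, none of which overlapped another. DKK1, LEF1 and NKD2 are shown, the first pair because they held a motif and NKD2 because it differed most among the SUM159 arrays. The DKK1 window (GRCh38.p14, chr10:52314031-52314280, plus strand) held CTTTGA at positions -149 to -144 and -95 to -90, counted back from the start. Of 35116 promoter windows of this length, 11.2% held that motif and 0.977% held it at least 2 times. The LEF1 window (chr4:108166302-108166551, minus strand) held the forkhead core at positions -25 to -20, as did 10.99% of all windows. The NKD2 window (chr5:1008552-1008801, plus strand) held none of the searched letters, and neither did the windows of CTNNB1 and WNT5A. The Iroquois core was in none of the 5 genes' windows and in 4.71% of all windows. Capitals mark the motifs, which read TCAAAG and TAAACA where they lie on the opposite strand.
DKK1: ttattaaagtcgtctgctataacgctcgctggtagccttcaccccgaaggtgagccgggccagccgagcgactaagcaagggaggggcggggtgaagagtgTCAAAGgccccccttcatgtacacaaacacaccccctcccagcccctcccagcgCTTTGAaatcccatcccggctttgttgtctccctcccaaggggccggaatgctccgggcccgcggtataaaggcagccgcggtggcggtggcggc
LEF1: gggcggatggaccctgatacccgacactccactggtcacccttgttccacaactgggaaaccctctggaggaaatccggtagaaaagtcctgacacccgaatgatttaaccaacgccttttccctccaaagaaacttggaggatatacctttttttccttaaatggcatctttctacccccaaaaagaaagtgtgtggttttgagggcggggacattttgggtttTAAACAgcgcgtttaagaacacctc
NKD2: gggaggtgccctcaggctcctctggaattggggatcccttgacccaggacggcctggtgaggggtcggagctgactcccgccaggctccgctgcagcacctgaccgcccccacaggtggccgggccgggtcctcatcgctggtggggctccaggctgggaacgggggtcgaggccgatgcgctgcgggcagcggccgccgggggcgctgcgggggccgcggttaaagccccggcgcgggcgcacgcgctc

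Values are deposited intensities, already brought to a like distribution in every array (medians 159.7 to 159.9). A probe counts as above background past an intensity of 141. Folds are of background-corrected values and are mostly larger than ratios of the intensities. Where the dimmer array lies under the limit it is set at the limit, and the fold is written as "at least" on that corrected scale. Medians of differences leave such arrays as measured. A gene above the limit in only 1 array of a pair can differ in only 1 direction. With 1 array per group there is no replicate and no test, so every difference is that of a pair of arrays, and fewer cells of a kind and less RNA per cell cannot be told apart. The best yardstick is the pair of untransfected and LacZ SUM159 arrays, called the reference pair. There, 2.23% of 10965 genes were at least 2-fold higher with LacZ and 1.29% lower.

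The introduced genes checked the labels. GCNT2 read 9104 by 1 of its 4 probes in HMLE Gcnt2 against 106 in HMLE LacZ. The FOXQ1 probe went against its label, at 1641 in HMLE LacZ but 299 in the array labelled Foxq1, and the IRX5 probe read 151 in the array labelled IRX5 and 165 in SUM159 LacZ. A probe outside a construct would not read it, and where these probes lie in the constructs was not tested. Directions for those arrays therefore rest on the label. All 6 measured epithelial markers (CDH1, EPCAM, KRT5, KRT14, KRT8, KRT18) were above the limit in HMLE LacZ and HMLE Gcnt2 and 5 in the array labelled Foxq1. The basal keratins KRT5 and KRT14 were below it in SUM1315, MDA-MB231 and all SUM159 arrays. EPCAM was above it in all of these, with KRT8 and KRT18 in MDA-MB231 and SUM159 and with CDH1 in SUM1315. Summed intensities of the leukocyte, endothelial and adipocyte lists ranged from 537 to 1940, from 524 to 619 and from 525 to 670. The highest leukocyte sum, 1940, was that of the array labelled Foxq1, against 1049 in HMLE LacZ, and its part in the results was not tested. CD14, PECAM1 and LEP were above the limit in all 8 arrays and LYZ in all but SUM159 LacZ, while PTPRC was above it in HMLE Gcnt2 alone.

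**Figure D1:**
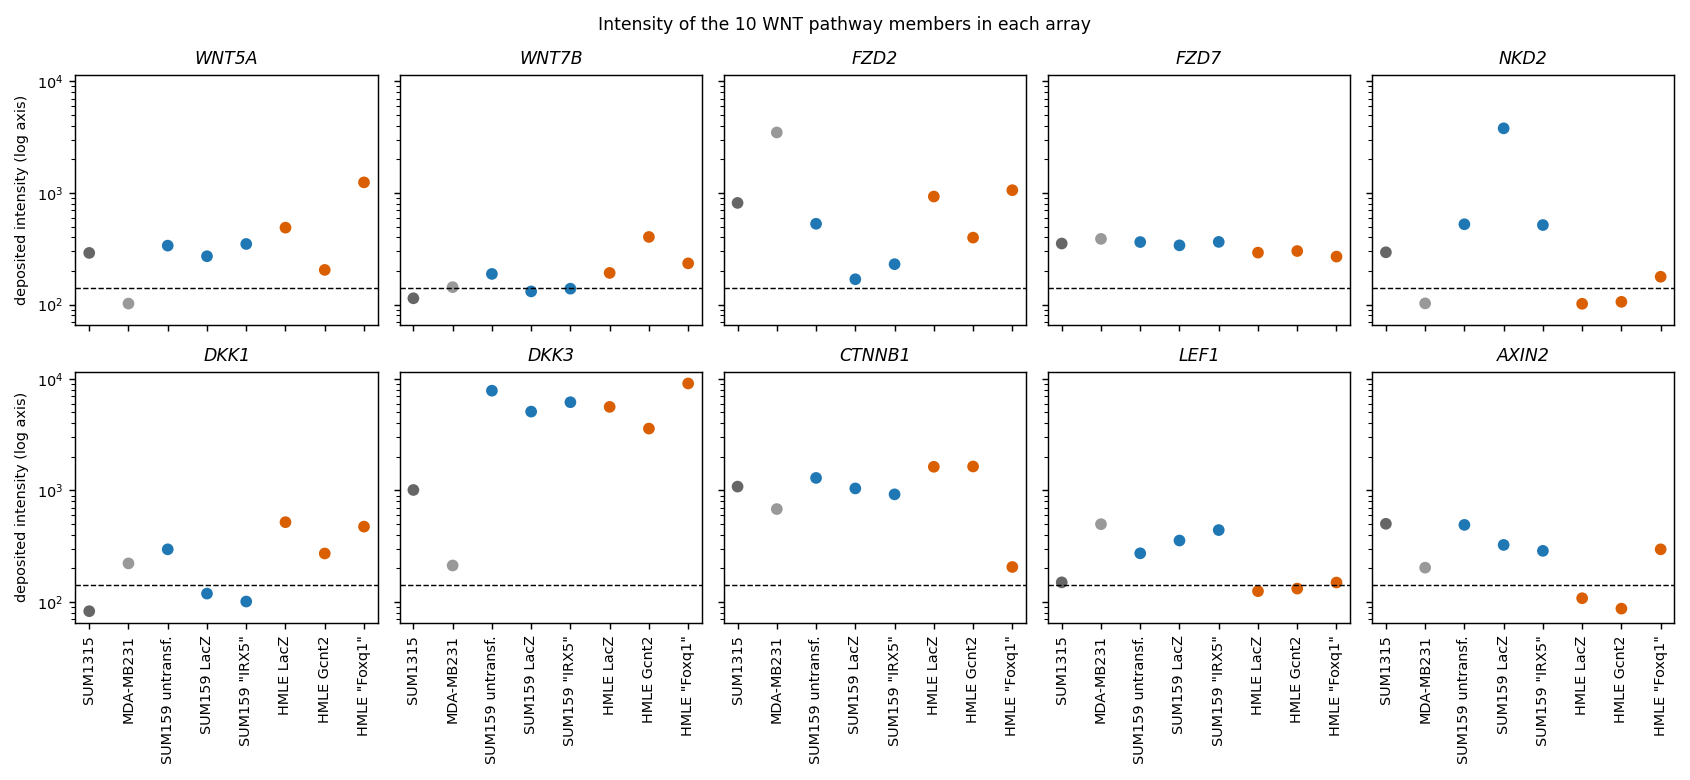
Deposited intensity (log axis) of each member's brightest probe in the 8 arrays, with grey points for SUM1315 and MDA-MB231, blue for SUM159 and orange for HMLE; the dashed line is the limit of 141, and quotation marks stand for "labelled". FZD7 is nearly level, NKD2 has 1 high array (3785 in SUM159 LacZ) and CTNNB1 has 1 low array (206 in the array labelled Foxq1).

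Among the ligands, WNT5A read 290 in SUM1315, 102 in MDA-MB231 and 337 in untransfected SUM159. The array labelled IRX5 read 349 and SUM159 LacZ 271. In HMLE it read 488 with LacZ, 204 with Gcnt2 and 1242 in the array labelled Foxq1. The array labelled Foxq1 thus stood at the top, 2.65-fold above the next, and MDA-MB231 at the bottom, under the limit. The 4 arrays of SUM1315 and SUM159 lay next to each other in the order, with steps of at most 1.18-fold between neighbours. WNT7B, a ligand of epithelia, was dimmer: it read 114 in SUM1315, 143 in MDA-MB231, 188 in untransfected SUM159, 131 in SUM159 LacZ and 139 in the array labelled IRX5. The HMLE arrays held its 3 highest values, 192 with LacZ, 403 with Gcnt2 and 234 in the array labelled Foxq1. No neighbours in its order were 2-fold apart, and 5 of 8 arrays were above the limit.

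The receptors behaved unlike each other. FZD2 read 3476 in MDA-MB231, 813 in SUM1315, 529 in untransfected SUM159, 168 in SUM159 LacZ and 230 in the array labelled IRX5. In HMLE it read 928 with LacZ, 397 with Gcnt2 and 1057 in the array labelled Foxq1. MDA-MB231 was 3.36-fold above the next array, and every further step was under 2-fold. FZD7, which like FZD2 can carry canonical signals, was the flattest member. It read 352 in SUM1315, 387 in MDA-MB231, 363 in untransfected SUM159, 339 in SUM159 LacZ and 364 in the array labelled IRX5, and 292, 302 and 269 in HMLE with LacZ, with Gcnt2 and in the array labelled Foxq1. Its highest intensity was 1.44 times its lowest, the smallest range of the 10 members' brightest probes.

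Of the inhibitors, NKD2 read 294 in SUM1315 and 524 in untransfected SUM159, 515 in the array labelled IRX5 and 3785 in SUM159 LacZ. It read 102 in MDA-MB231 and, in HMLE, 102 with LacZ, 106 with Gcnt2 and 177 in the array labelled Foxq1. SUM159 LacZ was 7.62-fold above the next array, and 3 arrays were under the limit. DKK1 read 520 in HMLE LacZ, 474 in the array labelled Foxq1, 272 in HMLE Gcnt2, 297 in untransfected SUM159 and 222 in MDA-MB231. It was under the limit in SUM1315 (82.9), SUM159 LacZ (119) and the array labelled IRX5 (101). AXIN2, the scaffold of the destruction complex that beta-catenin signalling itself induces, read 503 in SUM1315, 203 in MDA-MB231 and 491 in untransfected SUM159, and 288 in the array labelled IRX5 beside 325 in SUM159 LacZ. In HMLE it was under the limit with LacZ (108) and Gcnt2 (87.4) and read 297 in the array labelled Foxq1. Like NKD2 and LEF1, AXIN2 was above the limit in HMLE only in the array labelled Foxq1. That array had the most genes above the limit of all 8, 10688 against 10424 in HMLE LacZ and 10435 in HMLE Gcnt2.

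DKK3, which carries the DKK name but does not block the LRP co-receptors as DKK1 does, read 7820 in untransfected SUM159, 6165 in the array labelled IRX5, 5079 in SUM159 LacZ, 1009 in SUM1315 and 213 in MDA-MB231. In HMLE it read 5601 with LacZ, 3579 with Gcnt2 and 9074 in the array labelled Foxq1. The SUM159 and HMLE arrays lay above both other lines, with HMLE Gcnt2, the lowest of them, 3.63-fold above SUM1315, which was 5.38-fold above MDA-MB231. A second bright probe of DKK3 gave the same order at the bottom, 157 in MDA-MB231 and 760 in SUM1315, and read 2409 to 6410 in the remaining 6 arrays. The dim pair of DKK3 probes stayed between 112 and 187 and were above the limit in 1 and 2 arrays. CTNNB1 read 1082 in SUM1315, 681 in MDA-MB231 and, within SUM159, 1294 untransfected, 1042 with LacZ and 922 in the array labelled IRX5. In HMLE it read 1629 with LacZ, 1639 with Gcnt2 and 206 in the array labelled Foxq1, which was 3.71-fold below the next lowest. The second CTNNB1 probe was under the limit in all 8 arrays, from 95.5 to 122, so no other probe measured this difference. LEF1 read 499 in MDA-MB231, 442 in the array labelled IRX5, 356 in SUM159 LacZ, 273 in untransfected SUM159 and 150 in SUM1315. In HMLE it read 125 with LacZ, 132 with Gcnt2 and 150 in the array labelled Foxq1, the last of these just above the limit.

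**Figure D2:**
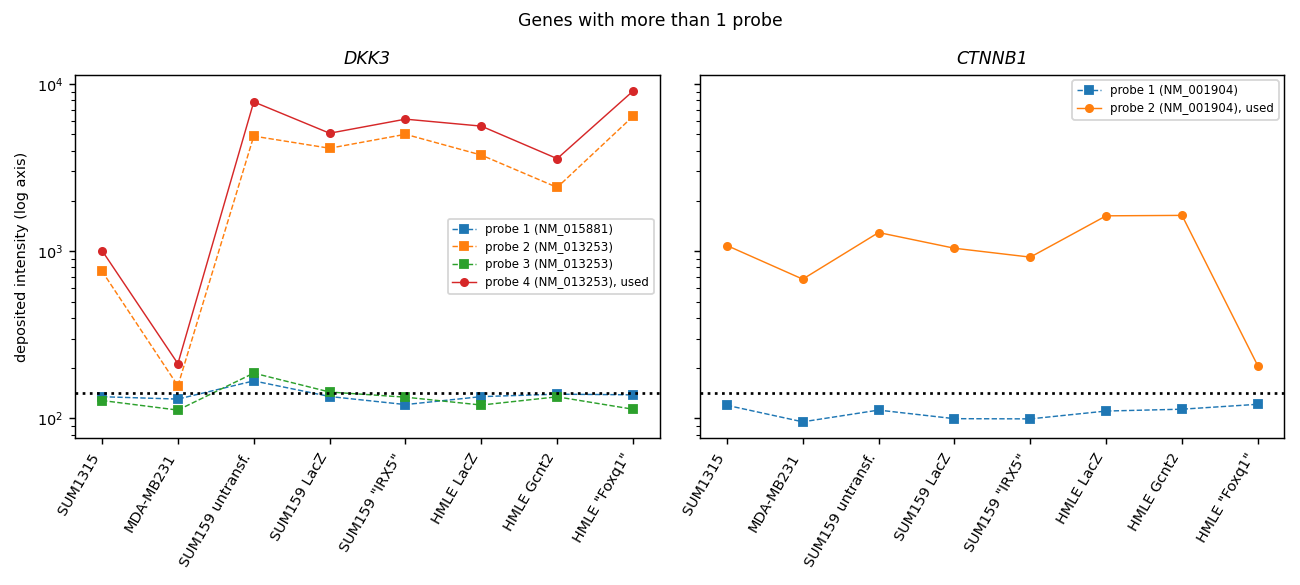
Deposited intensity (log axis) of every probe of DKK3 and CTNNB1 in the 8 arrays, with the limit of 141 dotted; a solid line marks the probe used and lines join the arrays only to guide the eye. Both bright DKK3 probes fall to their lowest value in MDA-MB231 (213 and 157), while the CTNNB1 value of 206 in the array labelled Foxq1 has no second probe above the limit.

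Within HMLE, the array labelled Foxq1 was set against LacZ to ask which genes follow Foxq1. WNT5A was 2.65-fold higher there and AXIN2 at least 2.41-fold higher, and CTNNB1 was 9.12-fold lower. All 10 members could be compared, and 2 of them lay at least 2-fold higher and 1 lower, where 6.19% and 5.51% of 11270 genes were. DKK3 was 1.62-fold higher, WNT7B 1.26-fold and FZD2 1.14-fold higher, NKD2 at least 1.33-fold and LEF1 at least 1.07-fold higher, and DKK1 and FZD7 were each 1.10-fold lower. The members' median difference on the log2 scale was 0.33, and that of all genes compared was 0.09. NKD2, LEF1 and AXIN2, under the limit in LacZ, could only come out higher here. A size yardstick was taken from percentile 99 of the reference pair among genes of like intensity. CTNNB1 lay beyond it (4.03-fold there) and WNT5A did not (4.25-fold), where 2.92% of all genes lay beyond it in either direction. AXIN2 lay narrowly past its yardstick (2.26-fold), but its intensity group was chosen with LacZ as measured, under the limit. For WNT7B, of somewhat higher mean corrected value in this pair, the yardstick was 3.07-fold, more than the AXIN2 bound. The place of AXIN2 beyond the yardstick is therefore uncertain.

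The low CTNNB1 value stood beside a feature of that array. Of 4770 probes above an intensity of 500 in each of the other 7 arrays, 156 (3.27%) were at least 2-fold lower there than in every other array and 12 higher, and the CTNNB1 probe was 1 of the 156. For HMLE Gcnt2 the same numbers were 10 lower and 1 higher of 4625 probes. Probes were kept for being bright in the other 7 arrays, with no floor in the array itself. That choice favours lower over higher, so the lean within an array is no result. Among 649 genes with 2 or more probes above 500 in either array, 90 had probes more than 4-fold apart in their difference from LacZ, against 0 of 613 for Gcnt2. Their part in the CTNNB1 value was not tested. The array labelled Foxq1 also differed in summed marker intensities. The mesenchymal markers VIM, FN1, CDH2 and ZEB1 summed to 39332 against 23591 in LacZ, and the epithelial markers to 21182 against 41215. Of the mesenchymal markers, CDH2 went the other way, at 3301 against 6067, and ZEB1 was under the limit in both arrays. The part of these marker differences in the WNT5A and AXIN2 differences was not tested.

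Across 10 lists of WNT pathway genes, which hold 119 genes with 114 on the array, 90 could be compared. Of these, 7 were at least 2-fold higher and 9 lower in the array labelled Foxq1, where 6.19% and 5.51% of all genes were. The median over the 90 was 0.04. IGFBP4, which binds insulin-like growth factors and can bind Frizzled and LRP proteins, was 8.74-fold higher, at 11281 against 1318. Higher too were PTK7, a receptor-like protein of planar cell polarity (2.40-fold), the polarity gene FUZ (at least 2.15-fold), and the corepressors TLE2 (at least 2.28-fold) and TLE3 (2.06-fold). Lower were the cadherins CDH1 (6.95-fold) and CDH3 (3.79-fold), which hold beta-catenin at the membrane, and the corepressor CTBP2 (at least 3.16-fold). The formin DAAM1 was 2.99-fold lower, CSNK1A1, the kinase that primes beta-catenin for destruction, 2.40-fold, the polarity cadherin CELSR2 2.15-fold, the ligand WNT7A 2.15-fold and the decoy receptor SFRP1 2.01-fold. CSNK1A1 read 620 in the array labelled Foxq1 and 1339 to 1829 in the other 7, so like CTNNB1 it was lowest in that array. CTBP2 was lowest there too, at 117, under the limit, against 186 to 438 in the other 7. The part of that array's low probes in the CSNK1A1 and CTBP2 differences was not tested. None of the 12 receptors and co-receptors compared was 2-fold apart. Of 9 known TCF target genes compared, AXIN2 alone was at least 2-fold higher and none was lower. Beside the shares of all genes, counts in lists this small say little.

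In HMLE Gcnt2 against HMLE LacZ, WNT5A was 2.64-fold lower, FZD2 2.45-fold and DKK1 2.02-fold lower, while WNT7B was 2.31-fold higher. Of the 7 members that could be compared, 1 was thus at least 2-fold higher and 3 lower, where 0.275% and 0.771% of 10893 genes were. As the members were chosen with earlier results known, that contrast is no test. With no background correction DKK1 was at -0.93 on the log2 scale, under 2-fold, which leaves 2 lower. NKD2, LEF1 and AXIN2 were under the limit in both arrays. DKK3 was 1.57-fold lower, FZD7 1.04-fold higher and CTNNB1 1.01-fold higher. None of the 7 lay beyond percentile 99 of the reference pair for its intensity, and 0.0734% of all genes did. The median of the 7 was -0.65 and that of all genes compared -0.0014. The summed mesenchymal markers read 9862 in Gcnt2 against 23591 in LacZ and the epithelial markers 56877 against 41215, and their part in the members' differences was not tested.

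In the wider lists 83 genes could be compared, with a median of 0.03. Of them 1 was at least 2-fold higher and 5 lower, where 0.275% and 0.771% of all genes were. WNT7B, WNT5A, FZD2 and DKK1 made up 4 of these 6. The other two were the mesenchymal cadherins CDH11 (4.15-fold lower) and CDH2 (2.63-fold lower). None of the 15 cytoplasmic transducers, the 10 nuclear partners or the 11 planar polarity genes compared was 2-fold apart. At those shares, counts of none in lists this small say little. Both HMLE comparisons share the LacZ array. Set side by side, WNT5A and DKK3 were lower in Gcnt2 and higher in the array labelled Foxq1, while FZD2 was 2.45-fold lower in the former and 1.14-fold higher in the latter. That difference between the comparisons was not tested.

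**Figure D3:**
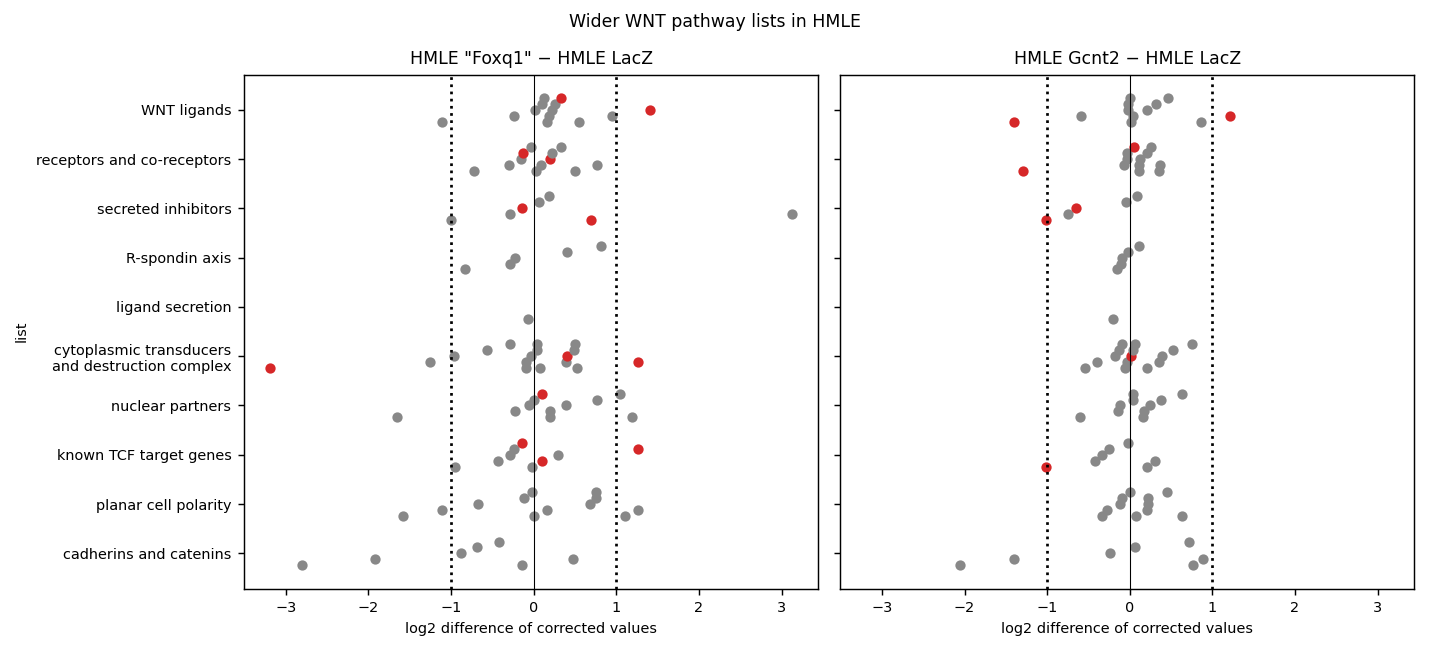
Log2 difference of corrected values from HMLE LacZ for every compared gene of the 10 WNT pathway lists, with members in red and dotted lines at 2-fold; an array under the limit is set at it. In the array labelled Foxq1 the points reach from CTNNB1 (-3.19) to IGFBP4 (3.13), while in HMLE Gcnt2 6 genes lie past the dotted lines.

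In SUM159 the controls themselves differed in these genes. NKD2 was 7.62-fold higher with LacZ than in untransfected cells, FZD2 was 3.62-fold lower and DKK1 at least 2.41-fold lower. Of the 10 members compared, 1 was at least 2-fold higher and 2 lower, beside the 2.23% and 1.29% of all genes given above. Of the other 7 members, 6 differed by 1.57-fold (AXIN2) or less and WNT7B by at least 1.42-fold, and the members' median was -0.49 against -0.01 for all genes. DKK1 and WNT7B, under the limit in LacZ, could only come out lower. Of 77 genes of the wider lists, 3 were higher and 3 lower. Besides the members these were JUP, the beta-catenin relative plakoglobin (2.53-fold higher), the growth regulator MYC (2.35-fold higher) and PTK7 (2.59-fold lower).

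**Figure D4:**
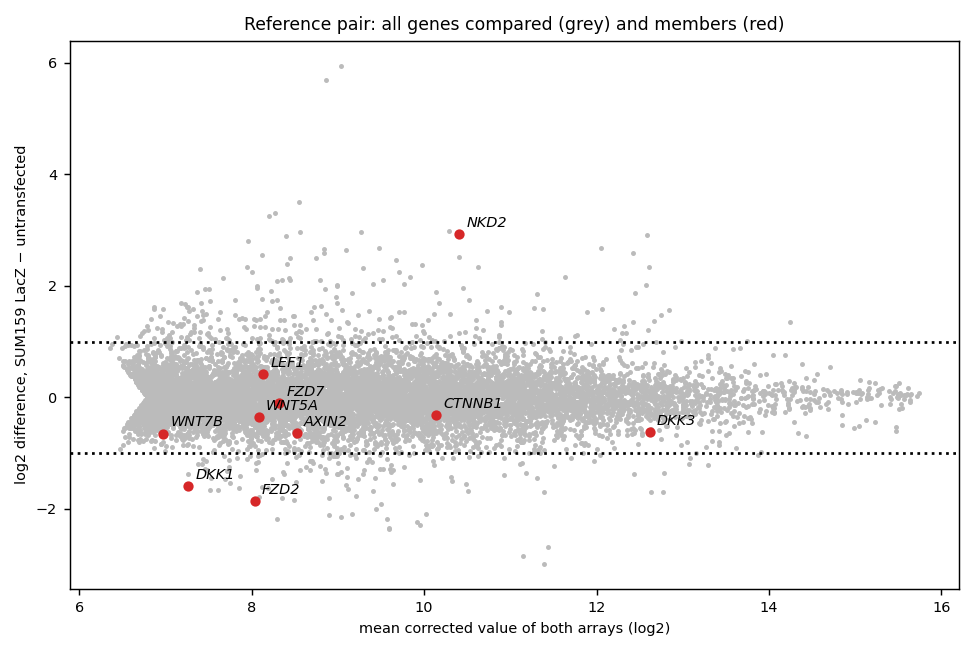
Log2 difference between SUM159 LacZ and untransfected SUM159 against the mean corrected value of both arrays (log2), with each of 10965 genes in grey, the members in red and dotted lines at 2-fold. NKD2 lies far above the cloud at 2.93, and FZD2 at -1.86 lies below it. Values here are plotted without setting dim arrays at the limit, so the point of DKK1, which is under the limit in LacZ, is no measured size.

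For IRX5 the array was therefore read against both controls, and no member was at least 2-fold apart from each of them in 1 direction, where 0.719% of 11271 genes were higher and 0.816% lower. Against LacZ alone NKD2 was 7.75-fold lower, the only 1 of 8 members compared, where 1.95% of all genes were lower. Against untransfected cells it was 1.02-fold lower, so the choice of control settled whether it differed. Against untransfected cells alone FZD2 was 2.50-fold and DKK1 at least 2.41-fold lower, 2 of 10 members, where 3.35% of all genes were lower. Both had differed in the same direction between LacZ and untransfected cells. LEF1 was higher in the array labelled IRX5 than in either control, 1.26-fold over LacZ and 1.69-fold over untransfected cells, and CTNNB1 was lower than in either, 1.13-fold and 1.42-fold. None of the 80 wider pathway genes compared was apart from both controls, and the median over them was 0.01.

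**Figure D5:**
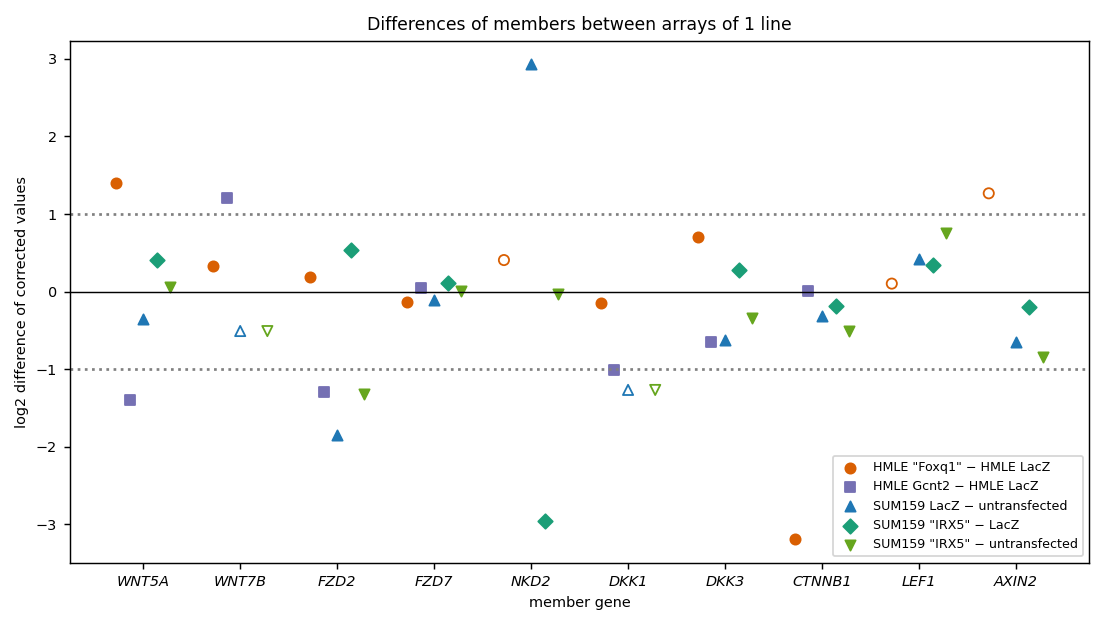
Log2 difference of corrected values for each member in 5 pairs of arrays within HMLE and SUM159; open symbols have 1 array set at the limit, dotted lines mark 2-fold and pairs with both arrays under the limit are left out. NKD2 stands at 2.93 for LacZ minus untransfected SUM159 and at -2.95 for the array labelled IRX5 minus LacZ, and CTNNB1 at -3.19 for the array labelled Foxq1.

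The untransfected lines were then compared with each other. MDA-MB231 stood furthest apart in these genes: FZD2 was 4.40-fold above the nearer line, and DKK3 (5.38-fold), AXIN2 (2.67-fold), NKD2 (at least 2.38-fold) and WNT5A (at least 2.34-fold) were below both. Thus 1 of 10 members was higher and 4 lower, where 3.81% and 2.42% of 11852 genes were. Here too the members were chosen with earlier results known. In SUM159, DKK3 was the only member apart, 7.96-fold above SUM1315 and 42.8-fold above MDA-MB231, where 3.02% of genes were higher in that line than in both others and 1.99% lower. By the DKK3 probe nearest to 0, 1 of the dim pair, SUM1315 (135) and MDA-MB231 (131) were both under the limit. Set at it, each differed from SUM159 by -0.31 on the log2 scale, a bound and no measured size. In SUM1315 LEF1 was 2.03-fold below SUM159 and 3.92-fold below MDA-MB231, the only 1 of 10 members that was lower, where 4.26% of genes were lower and 5.75% higher. With no background correction the step from SUM1315 to SUM159 was -0.86 on the log2 scale, and with cyclic loess -0.997, both under 2-fold. DKK1, under the limit in SUM1315, was at least 2.41-fold lower there than in SUM159 but only at least 1.73-fold lower than in MDA-MB231. CTNNB1 and FZD7 differed by at most 1.94-fold and 1.11-fold among the 3 lines.

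The wider lists held 86 genes that could be compared among the lines. At least 2-fold from both other lines, MDA-MB231 was higher for 7 and lower for 7 of them, SUM1315 for 7 and 6, and SUM159 for 3 and 3. The shares of all genes for each line are those given above. The ligand WNT5B, a close relative of WNT5A, ran in another order, 1883 in SUM1315, 731 in MDA-MB231 and 167 in SUM159. The polarity gene PRICKLE1 read 1001 in MDA-MB231 and 106 in both other lines, and PRICKLE2 read 1248 in SUM1315, 427 in MDA-MB231 and 157 in SUM159. SUM1315 alone was high for FZD8 and FZD9 (2.32-fold and 2.35-fold), RSPO2, an R-spondin that strengthens WNT signals (2.79-fold), DACT3, which binds Dishevelled (3.69-fold), and the corepressor TLE4 (2.38-fold). It was low for IGFBP4 (at least 42.6-fold), the cell cycle gene CCND1 (4.68-fold), WLS, which carries WNT proteins to the cell surface (3.47-fold), the WNT5A receptor ROR1 (at least 3.08-fold) and AMER1, which binds APC (2.45-fold). MDA-MB231 was high for the cadherin CDH11 (8.22-fold), the ligand BMP4, a known TCF target (5.74-fold), CTNNBIP1, which keeps beta-catenin from TCF (3.19-fold), IGFBP4 (2.64-fold) and the coactivator BCL9L (2.31-fold). It was low for CELSR3 (2.29-fold), FZD9 (at least 2.24-fold) and TLE2 (at least 2.13-fold). SUM159 was high for the cadherin CDH2 (64.7-fold) and the receptor FZD3 (2.85-fold), and low for WNT5B (5.14-fold), PRICKLE2 (3.13-fold) and the transducer DVL2 (2.27-fold). CDH2 read 143 in SUM1315 and 146 in MDA-MB231, just above the limit, so the size of its fold is uncertain.

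HMLE and SUM159 were set side by side through their LacZ arrays. HMLE was higher in FZD2 (6.52-fold) and DKK1 (at least 4.42-fold) and lower in NKD2 (at least 34.0-fold), LEF1 (at least 2.94-fold) and AXIN2 (at least 2.66-fold). That is 2 of 10 members higher and 3 lower, where 8.34% and 7.88% of 11324 genes were. FZD2, DKK1 and NKD2 are also the members that differed in the SUM159 reference pair. Against untransfected SUM159 the intensities were 928 and 529 for FZD2, 520 and 297 for DKK1, and 102 and 524 for NKD2, a far smaller gap than to the 3785 of SUM159 LacZ. WNT5A was 1.91-fold higher in HMLE, WNT7B at least 1.46-fold and CTNNB1 1.58-fold higher. Of 89 wider pathway genes 17 were higher and 8 lower. Of the cadherins and catenins, CDH1 was at least 73.0-fold, CDH3 at least 57.8-fold, CDH11 at least 11.2-fold and JUP 8.83-fold higher in HMLE. Higher too were the decoy receptor SFRP1 (at least 13.3-fold), the formin DAAM1 (6.88-fold), PRICKLE1 (at least 5.64-fold), PRICKLE2 (5.30-fold) and CELSR2 (3.42-fold). The ligands WNT5B (at least 5.31-fold) and WNT7A (at least 4.43-fold), the receptor FZD6 (3.62-fold), CTNNBIP1 (3.86-fold) and TLE4 (2.72-fold) were also higher. Lower in HMLE were the polarity cadherin CELSR3 (9.80-fold), IGFBP4 (3.50-fold), MYC (2.71-fold), TLE2 (at least 2.55-fold) and AMER1, which binds APC (2.24-fold).

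Genes with the pattern most like each member were ranked among 6582 genes by Pearson's r of log2 values over the 8 arrays. These arrays come from 4 lines, 2 of them with 3 arrays each, so the points share their cells and r is a description. CTNNB1 was nearest to AMD1 (r = 0.977), ATP2C1 (0.975) and TWF1 (0.968), and all 3 were among the 156 probes lowest in the array labelled Foxq1. The ranking and that set both rest on low values in the same array, so this overlap is no separate support. NKD2 was nearest to MGP (0.955), PRSS53 (0.943) and EPHA4 (0.937). MGP read 4345 in SUM159 LacZ against 1455 in untransfected SUM159 and 879 in the array labelled IRX5. WNT5A was nearest to YBX1 (0.948), the collagen gene COL1A1 (0.942) and NTN4 (0.941). COL1A1 read 1361 in HMLE LacZ, 387 in HMLE Gcnt2 and 5664 in the array labelled Foxq1. WNT7B was nearest to PPARD (0.970), CDK5R1 (0.962) and MANSC1 (0.951), and FZD2 to ZNF470 (0.970), ZNF792 (0.968) and HYLS1 (0.953). DKK1 was nearest to ABHD5 (0.971), ILK (0.967) and ARPC5 (0.963), and DKK3 to XRCC1 (0.981), HOXC13 (0.954) and HOXC4 (0.953). LEF1 was nearest to QSOX2 (0.979), ATP5MG (0.976) and CYBA (0.964), and AXIN2 to PSMB9 (0.980), AHCYL1 (0.975) and GSTA4 (0.963). FZD7 spanned too small a range to be ranked.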

How the data were processed

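The deposited value table holds linear probe intensity (73.3 to 56056.2). Once sorted, the authors' values vary across arrays by a coefficient of variation up to 1.27%, as between-array normalization leaves them. GenomeStudio, lumi 1.14 and R 2.11.1 are named per the submitters' processing notes, with no role stated; no source names a background correction. A deposited table of unnormalized values was not used, since no label ties its 16 columns to samples. Of the probes, 21834 had 1 gene symbol, none had several and 2692 were unnamed; 21813 were matched by Entrez number to current symbols in the RefSeq table (GRCh38.p14, names only).

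Intensities were corrected with normexp (offset 50; limma 3.58.1 in R 4.3.3), then log2-transformed. A gene is its brightest named probe. The detection limit is the mode of log2 intensity plus the spread below it, mirrored, at a tail of 0.01. The limit, the motifs and their window were defined after the values were seen. Genes were compared where at least 1 array was above it. Other steps used Python 3.11.15, numpy 2.4.6, pandas 2.3.3 and matplotlib 3.10.9. The calls were tested on simulated data, made from HMLE LacZ with the spread of the reference pair. No result here rests on that run, and it did not imitate the array labelled Foxq1. The number of arrays limits the precision.

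Members and lists were chosen with earlier results of these data known. The lists were WNT ligands, receptors and co-receptors, secreted inhibitors, the R-spondin axis, ligand secretion, cytoplasmic transducers, nuclear partners, known TCF target genes, planar cell polarity, and cadherins and catenins. Named genes were all members, pathway genes at least 2-fold apart (at most 4 per direction, list and comparison) and, for members above the limit in at least 4 arrays and spanning 2-fold, the 3 genes of highest r.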

Additional observations from a re-analysis of the deposited data

How the results depend on the processing

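The alternatives were no background correction, a normexp offset of 16, a detection tail of 0.05 (limit 131), comparison only with all arrays above the limit, the mean of probes, cyclic loess on top, either SUM159 control alone and, chosen after seeing the data, the detected probe nearest to 0. No member difference past 2-fold reversed. Of 575 recomputed member differences 565 kept their side of 2-fold, 5 fell under it and 5 rose past it. The counts of members apart were less stable, and 9 of 58 recomputed counts moved. For the wider lists 5 of 58 counts moved. DKK1 in Gcnt2 was -0.93 with no background correction. DKK3 in MDA-MB231 against SUM159 was -0.31 by the probe nearest to 0, with MDA-MB231 set at the limit. An offset of 16 or loess put WNT5A past 2-fold between HMLE LacZ and SUM159 LacZ (1.04 and 1.0039), and the offset did so for NKD2 (-1.0039) and DKK1 (-1.04) in SUM1315 and LEF1 (1.06) in MDA-MB231. With all arrays above the limit, which leaves fewer genes, the wider lists had 12 genes apart between HMLE LacZ and SUM159 LacZ against 25, 7 against 14 for MDA-MB231 and 8 against 13 for SUM1315. For IRX5 1 gene was apart from LacZ alone and 3 from untransfected cells alone, against 0 from both. The unnormalized table with neqc was not run because its columns could not be mapped. No paired analysis was possible because each group has 1 array. Intensities near background limit WNT7B, LEF1, DKK1, NKD2 and AXIN2.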
